A study of Mus musculus with 12 samples.

Results

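The 10 genes described here are genes of adipocytes: Adipoq, Cfd and Lep, which encode proteins that adipocytes secrete, Plin1, Plin4 and Cidec, which encode proteins of the lipid droplet, Lpl and Fabp4, which serve fatty acid uptake, Car3, a carbonic anhydrase abundant in fat, and Pparg, the nuclear receptor that directs adipocyte differentiation. They were chosen by name as adipocyte genes, and their joint variation between libraries was read as a measure of fat in the dissected gland. All 10 were found among the 56065 genes of the count table, and all 10 passed the filter on low counts that left 17893 genes.

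The study compared submandibular glands (SMGs) of mice with and without tuft cells (TCs), rare chemosensory epithelial cells whose development needs the transcription factor Pou2f3. Bulk RNA-sequencing was carried out on 12 SMGs of mice aged 8 weeks, 1 library per mouse, with 3 biological replicates in each of 4 groups. The wild-type groups were female and male C57BL/6J mice, and the knockout groups were female and male C57BL/6J-Pou2f3-/- mice, which carry the Pou2f3 em1Cbwi allele on the same background. All 12 glands came from mice without any further treatment named in the labels. No Cre driver or promoter is named for the knockout, and whether wild-type and knockout mice were littermates is not given in the sources used here.

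White adipocytes store triglyceride in a single large lipid droplet, which perilipins coat and Cidec helps to enlarge, and they release adiponectin, adipsin and leptin into the blood. Brown adipocytes share most of these genes and add Ucp1, the mitochondrial protein that turns fuel into heat. The SMG lies in the neck within loose connective tissue and fat, so that a dissected gland can carry adipocytes along with its acini and ducts. In such bulk samples, fewer adipocytes and less of these RNAs in each adipocyte cannot be told apart.

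The windows upstream of 4 members are shown because these genes moved together across libraries, and because none of the 4 windows overlaps annotated exons by more than 19 bases. Each is 250 bases long, ends at the base before the RefSeq transcript start, is written 5′ to 3′ on the gene's strand and was read from the RefSeq promoter table (GRCm38.p6). Each matched GRCm39 exactly once, at chr16:22965036-22965285 for Adipoq (plus strand), chr10:79726437-79726686 for Cfd (plus), chr6:113412722-113412971 for Cidec (minus) and chr6:29059970-29060219 for Lep (plus). The Adipoq window lies inside the span of the Gencode gene, after its annotated start and outside its annotated exons, because the RefSeq transcript starts further downstream. Capitals mark a match, on either strand, to the CCAAT box, to TTGCNNAA (the core letters of a C/EBP site, N being any base), to AGGTCA (the core letters of nuclear receptor sites) or to TATAAA.
Adipoq: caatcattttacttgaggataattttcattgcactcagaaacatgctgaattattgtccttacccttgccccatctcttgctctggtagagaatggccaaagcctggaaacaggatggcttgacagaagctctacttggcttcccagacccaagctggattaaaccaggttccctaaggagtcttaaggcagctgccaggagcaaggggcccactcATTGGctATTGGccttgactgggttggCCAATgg
Cfd: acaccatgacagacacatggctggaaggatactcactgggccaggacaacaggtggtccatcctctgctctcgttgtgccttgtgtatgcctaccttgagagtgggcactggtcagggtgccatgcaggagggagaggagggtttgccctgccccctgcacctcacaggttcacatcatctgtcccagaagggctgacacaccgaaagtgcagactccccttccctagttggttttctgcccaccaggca
Cidec: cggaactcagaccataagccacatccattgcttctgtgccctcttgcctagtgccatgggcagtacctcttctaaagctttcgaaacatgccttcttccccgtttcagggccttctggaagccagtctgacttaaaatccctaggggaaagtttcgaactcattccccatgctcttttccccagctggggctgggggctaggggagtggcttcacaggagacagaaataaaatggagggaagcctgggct
Lep: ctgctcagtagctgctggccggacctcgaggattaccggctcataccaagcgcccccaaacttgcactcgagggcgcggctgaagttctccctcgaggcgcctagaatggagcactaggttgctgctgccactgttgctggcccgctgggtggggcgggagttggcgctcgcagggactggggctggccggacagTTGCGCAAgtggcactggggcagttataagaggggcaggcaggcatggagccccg

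CCAAT lay 7, 27 and 34 bases before the Adipoq start, and was read as ATTGG at the last 2 of these positions. The Lep window held TTGCGCAA 55 bases before the start, which matches TTGCNNAA on both strands. No match to these letters was in the Cfd or Cidec window shown. Of the 32851 RefSeq windows of the same length, 33.8% held CCAAT, 9.56% TTGCNNAA, 14.0% AGGTCA and 12.4% TATAAA, so that the letters found are common ones. These matches are a description of the sequence, and no binding was measured.

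Total counts ranged from 47032175 to 67882207 per library, and the 10 genes took up between 0.00214% and 0.0231% of them. For counting error only, a gene with no count could still have had up to 3, which is 0.0442 to 0.0638 CPM (counts scaled to library size). Pou2f3 itself had 0 to 10 counts in wild-type and 0 to 3 counts in knockout libraries, too few to test or to check the genotype labels. Summed acinar markers, without Amy1 and Bpifa2, ran from 3504 to 15431 CPM over the 12 libraries. In females the sum was 9866 to 15431 CPM in wild type, highest in female wild type 3, and 5912 to 6731 CPM in knockouts, without overlap. In males it was 4010 to 6464 CPM in wild type and 3504 to 5185 CPM in knockouts. Of 6 acinar markers, 3 were called lower in female knockouts by edgeR's quasi-likelihood test, where 19.3% of all genes tested were. Summed markers of the male granular convoluted tubules ran from 49260 to 91468 CPM in males and from 498 to 1419 CPM in females, without overlap between the sexes. Female wild type 3, male knockout 2 and male knockout 3 stood apart in the adipocyte genes, while male knockout 2 and male wild type 3 stood apart in Amy1 and Bpifa2, which encode salivary amylase and parotid secretory protein. These genes, more typical of the parotid gland, took up 45.7% of the counts of the whole acinar list in male knockout 2 and 13.6% in male wild type 3, against at most 0.935% in the other 10 libraries, so the markers do not show that these 2 samples held submandibular tissue alone. For the members, the number called with single libraries left out is given beside the results. For the called genes named from other lists, the calls lost when a library was left out are given there.

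Adipoq (chr16:22964106-22976810 in GRCm39, plus strand) encodes adiponectin, a hormone made almost exclusively by adipocytes. Its estimated counts, rounded to whole numbers, were 13, 21 and 261 in the wild-type females and 9, 35 and 2 in the knockout females. The males had 4, 6 and 4 (wild type) and 19, 314 and 184 (knockout). The library of female wild type 3 and those of male knockout 2 and 3 thus held most of the Adipoq counts, the wild-type males were uniformly low, and the female groups overlapped while the male groups did not.

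Cfd (chr10:79726668-79728496, plus) encodes adipsin, the complement factor D secreted by fat. It gave 41, 240 and 1601 counts in wild-type females and 33, 125 and 9 in knockout females. Wild-type males had 18, 15 and 29 counts and knockout males 80, 1846 and 1420. The same 3 libraries were highest, and the lowest knockout male still lay above the highest wild-type male.

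Lep (chr6:29060216-29073877, plus) encodes leptin, which reports the size of the fat stores to the brain. It had few counts, with 6, 12 and 14 in the wild-type and 1, 5 and 1 in the knockout females. The wild-type males gave 2, 9 and 10 and the knockout males 3, 34 and 23. Lep was the member whose female groups did not overlap after normalization, on counts low enough for counting error to matter, and its male groups overlapped.

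Plin1 (chr7:79369966-79382718, minus) encodes perilipin 1, which coats the droplet of adipocytes and controls access of lipases. It had 20, 28 and 261 counts in wild-type females and 1, 34 and 4 in knockout females. The male libraries gave 9, 5 and 8 counts in wild type and 20, 461 and 195 in knockout. Its order of libraries was close to that of Adipoq, with a count of 261 for both genes in female wild type 3.

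Cidec (chr6:113400691-113412721, minus) encodes a protein that fuses lipid droplets. Wild-type females gave 10, 35 and 185 counts and knockout females 0, 20 and 3. Wild-type males gave 0, 6 and 7, and knockout males 11, 272 and 160. Female knockout 1 and male wild type 1 had no Cidec count, which allows up to 3, and the male groups did not overlap.

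Plin4 (chr17:56406617-56416931, minus) encodes perilipin 4, found on small droplets of adipocytes and muscle. Its counts varied far less: females had 90, 167 and 287 (wild type) and 92, 124 and 119 (knockout), and males 265, 218 and 242 (wild type) and 153, 525 and 396 (knockout). Wild-type males, the group with the lowest Adipoq median (3.30 normalized counts), were in the middle of the range for Plin4, and the groups overlapped in both sexes.

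Fabp4 (chr3:10268785-10273737, minus) encodes the fatty acid-binding protein of adipocytes, which capillary endothelium and macrophages also make. It gave 118, 161 and 873 counts in wild-type females and 138, 197 and 102 in knockout females. Wild-type males had 92, 80 and 78 counts and knockout males 112, 893 and 425. The 3 libraries rich in Adipoq stood out again, above the 78 to 197 counts of the other 9, and the male groups did not overlap.

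Lpl (chr8:69284603-69360100, plus) encodes lipoprotein lipase, which frees fatty acids from circulating triglyceride. Wild-type females had 1709, 828 and 2560 counts and knockout females 993, 2552 and 1231. Wild-type males had 799, 1071 and 784, below all 3 knockout males at 1448, 4207 and 3140. The male groups did not overlap, and the female groups did, with knockout 2 at 2476 normalized counts between the wild-type libraries.

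Car3 (chr3:14928489-14937595, plus) encodes carbonic anhydrase 3, plentiful in adipocytes and in slow muscle. It gave 113, 374 and 1788 counts in the wild-type females and 49, 327 and 6 in the knockouts. Counts of 54, 33 and 69 were found for wild-type males, and of 177, 3466 and 1647 for knockout males. Markers of skeletal muscle summed to between 1.1 and 2.85 CPM in all 12 libraries, and 8 of the 10 muscle markers were too low to be tested.

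Pparg (chr6:115337675-115468268, plus) encodes the receptor that switches on most of the other members during adipocyte differentiation. It was low throughout, with 28, 12 and 28 counts in the wild-type and 26, 23 and 13 in the knockout females. The wild-type males had 12, 12 and 8 and the knockout males 7, 74 and 24. Male knockout 2 was high, male knockout 1 was the lowest library of all 12, and the groups overlapped in both sexes.

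**Figure D1:**
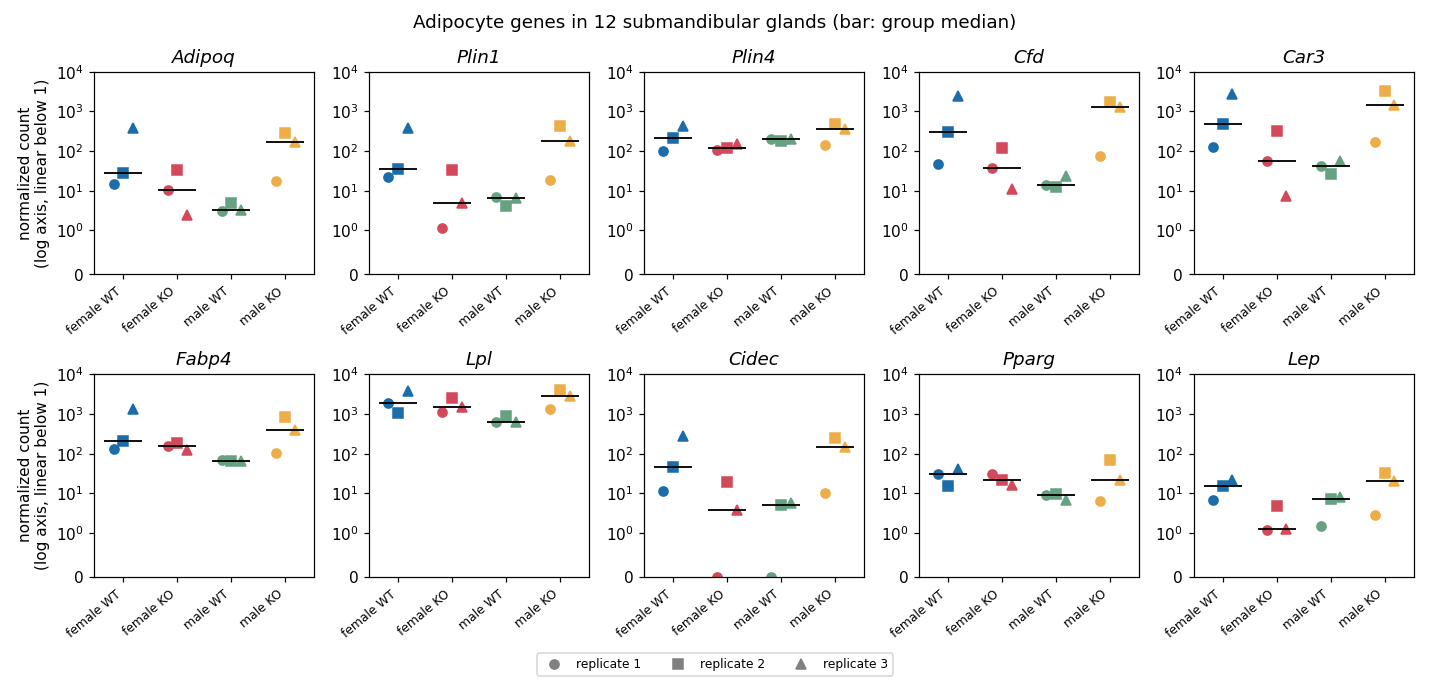
Normalized counts (TMM-adjusted, log axis, linear below 1) of the 10 adipocyte genes in each of 12 SMGs by group, with marker shape for the replicate and a bar at the group median of 3 libraries. Female wild type 3 and male knockout 2 and 3 are high for most genes, as for Adipoq at 393, 294 and 167 normalized counts, while the wild-type males lie close together.

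After TMM normalization the range over the 12 libraries differed strongly between members. Car3 was 437-fold higher in its highest library than in its lowest, and Cfd 216-fold. Where the lowest library had at most 3 counts the ratio is a lower bound, set with 3 counts in that library: Plin1 was at least 125-fold, Adipoq at least 106-fold, Cidec at least 80.5-fold and Lep at least 9.20-fold higher. Fabp4 varied 20.5-fold, Pparg 10.6-fold, Lpl 6.42-fold and Plin4 4.86-fold.

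Per length of merged exons, the levels at the median library ran from 2.03 CPM per kb for Lpl through 1.08 for Cfd, 0.817 for Car3, 0.510 for Fabp4, 0.410 for Plin4, 0.123 for Adipoq, 0.0602 for Cidec, 0.0560 for Plin1 and 0.0470 for Pparg to 0.0364 for Lep. The ranges of neighbours in this order overlapped in each pair, and the order was not fixed. In female wild type 3 the highest level was that of Cfd at 43.3 CPM per kb, followed by Car3 at 15.1, Lpl at 5.46, Fabp4 at 4.59 and Adipoq at 2.99.

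The first comparison asked whether loss of Pou2f3 changed these genes in females. All 10 were lower in the knockout, with a median log2 fold change of −2.75 against 0.03 over all genes tested. In edgeR's quasi-likelihood test, adjusted by Benjamini-Hochberg over all genes tested, 3 of 10 were down-regulated, where 19.3% of all genes tested were called lower. These were Cfd with a log2 fold change of −3.96 (SE 1.29, adjusted p = 0.0293, 15.5-fold lower), Cidec with −3.74 (SE 1.34, adjusted p = 0.0442) and Plin1 with −3.43 (SE 1.26, adjusted p = 0.0483). Adipoq missed the threshold at −3.13 (SE 1.22, adjusted p = 0.0593), as did Lep at −2.44 (SE 0.95, adjusted p = 0.0604) and Car3 at −3.06 (SE 1.2, adjusted p = 0.0613). The values of Fabp4 (−1.78), Plin4 (−0.99), Lpl (−0.41) and Pparg (−0.37) had adjusted p between 0.0885 and 0.693. The groups did not overlap for 1 of 10 members, where 24.1% of all genes tested lay without overlap in that direction.

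The calls in females changed when single mice were left out. Without female wild type 3 none of the 10 was called, where 16.0% of all genes tested were called lower. The Adipoq difference shrank there to −0.40 and that of Cfd to −1.63, and Lpl changed sign. None was called either without female knockout 1 or without female knockout 3, where 17.0% of all genes tested were called lower each time. The differences stayed large in these settings, at −2.98 and −2.73 for Adipoq and −3.80 and −3.57 for Cfd. In contrast, 8 were called without female wild type 1 and 5 without female knockout 2, where 22.0% and 20% of all genes tested were called lower. DESeq2's Wald test called 6 of 10, with 21.4% of all genes called lower.

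The second comparison was the same one in males. All 10 genes were higher in the knockout, with a median log2 fold change of 3.92 against −0.04 over all genes tested. For 7 of 10 members the groups did not overlap (Adipoq, Plin1, Cfd, Car3, Fabp4, Lpl and Cidec), where 6.51% of all genes tested did so in that direction. The estimated differences were 5.94 for Cfd (SE 1.46), 5.36 for Adipoq (SE 1.41), 5.29 for Car3 (SE 1.35), 5.24 for Cidec (SE 1.45) and 5.12 for Plin1 (SE 1.36), or between 34.8-fold and 61.5-fold. Fabp4 was at 2.72 (SE 0.81), Lpl at 1.93 (SE 0.45), Pparg at 1.91 (SE 0.68), Lep at 1.68 (SE 0.80) and Plin4 at 0.77 (SE 0.45).

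No member was called in males at an adjusted p of 0.05 by edgeR's quasi-likelihood test, where 0.101% of all genes tested were called higher. The adjusted p ran from 0.116 for Lpl to 0.548 for Plin4. At an unadjusted p of 0.05, 8 of 10 passed, all but Plin4 and Lep, where 11.5% of all genes tested did so in either direction. DESeq2's Wald test called 5 of 10, where 1.26% of all genes tested were called higher, and edgeR without the low-count filter 7 of 10, where 0.718% were. Leaving out male knockout 1, the lowest of the 3 knockout males in Adipoq, gave 8 called members, with 1.74% of all genes tested called higher. Without male knockout 2 none was called, where 0.0270% of all genes tested were called higher, and the differences were 4.58 for Adipoq and 5.35 for Cfd.

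**Figure D2:**
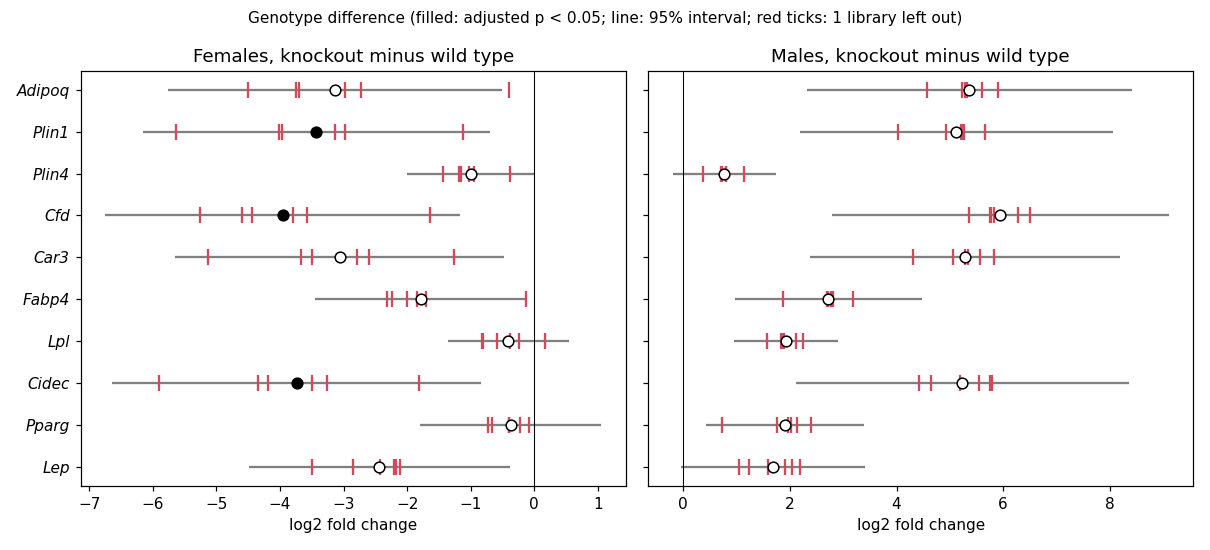
Log2 fold change (knockout minus wild type) of each adipocyte gene in females and in males, with its 95% interval as a line, filled circles for an adjusted p under 0.05, and red ticks for the estimate with each of the 6 libraries of that sex left out in turn. Cfd, Cidec and Plin1 are filled in females and none in males, and the tick nearest 0 for Adipoq in females, at −0.40, is the estimate without female wild type 3.

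The third comparison tested whether the genotype difference itself differed between the sexes. The interaction, female minus male difference, was below 0 for all 10 genes and was called for 8 of 10, where 12.4% of all genes tested were called in that direction. It was −9.90 for Cfd (SE 1.95, adjusted p = 0.0058), −8.97 for Cidec (SE 1.97, adjusted p = 0.0087), −8.55 for Plin1 (SE 1.85, adjusted p = 0.0082), −8.50 for Adipoq (SE 1.86, adjusted p = 0.0086) and −8.35 for Car3 (SE 1.80, adjusted p = 0.0079). Smaller values were found for Fabp4 at −4.50 (adjusted p = 0.0140), Lep at −4.12 (adjusted p = 0.0302) and Lpl at −2.34 (adjusted p = 0.0192). Pparg at −2.28 (adjusted p = 0.0911) and Plin4 at −1.77 (adjusted p = 0.0609) did not pass. With 1 library left out, between 6 and 10 members were called, 7 of them without female wild type 3 and 7 without male knockout 2, where 10.9% and 8.65% of all genes tested were called lower. Cfd, Cidec, Plin1, Adipoq, Car3 and Fabp4 were called each time (adjusted p at most 0.0389). Lpl and Lep were not, with an adjusted p of up to 0.0537 and 0.0782. Without male knockout 2 and male wild type 3 together, a choice made after seeing the data, 3 were called, while the share over all genes tested fell to 3.09%.

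The sexes were also compared within each genotype. These contrasts use the same libraries as the genotype contrasts, so that their values are set beside them and are not further evidence. Between wild types, all 10 genes were lower in males, and 7 of 10 were called lower, where 16.0% of all genes tested were; the 3 others were Plin4, Pparg and Lep. The difference was −5.77 for Cfd (SE 1.46, adjusted p = 0.0078), −5.21 for Adipoq (SE 1.41, adjusted p = 0.0115) and −1.68 for Lpl (SE 0.45, adjusted p = 0.0111), and the groups did not overlap for 8 of 10 members, where 20.9% of all genes tested did so. Without female wild type 3 none was called, where 12.9% of all genes tested were called lower, and the Adipoq difference was −2.44. Without male wild type 1, 4 were called, where 11.2% of all genes tested were.

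Between knockouts the order was the opposite. All 10 genes were higher in males and 7 of 10 were called higher, where 23.2% of all genes tested were, with 4.13 for Cfd (SE 1.29, adjusted p = 0.0204), 3.92 for Plin1 (SE 1.26, adjusted p = 0.0233) and 3.29 for Adipoq (SE 1.21, adjusted p = 0.0425). Fabp4, Lpl and Pparg did not pass. No member had groups without overlap, where 27.3% of all genes tested did in that direction. In Adipoq, male knockout 1 lay below female knockout 2 (17.7 against 34.0 normalized counts). Without female knockout 1 or without male knockout 2 none was called, without female knockout 3 there was 1, and without male knockout 3 there were 3. In these settings 19.3% to 21.5% of all genes tested were called higher. With any 1 library left out, the difference was still at least 3.54 for Cfd, 2.84 for Plin1 and 2.52 for Adipoq.

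Each of the other 9 genes was then compared with Adipoq over the 12 libraries on the log2 CPM scale. Cfd followed it most closely, with Pearson's r of 0.98 and Spearman's rho of 0.97, then Car3 with r of 0.96 and rho of 0.95. For Plin1 these were 0.95 and 0.86, for Fabp4 0.95 and 0.86, for Cidec 0.93 and 0.91, for Lpl 0.88 and 0.78, and for Lep 0.80 and 0.72. Plin4 (0.73 and 0.46) and Pparg (0.73 and 0.59) were lowest. By permutation tests with 100000 resamples, two-sided and adjusted over the 9 relations, Pearson's r passed for all 9 genes (adjusted p at most 0.00803), while Spearman's rho did not for Plin4 (permutation p = 0.133, adjusted p = 0.133) and Pparg (permutation p = 0.0462, adjusted p = 0.0520). The permutations shuffled the 12 libraries regardless of group, so differences between the 4 groups enter these p-values. The r with group means removed, given below, was not tested.

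The libraries lie in a group of 3 with high Adipoq and a group of 9 with lower Adipoq, so the relation was also computed within the 9. There r was 0.92 for Cfd, 0.91 for Car3, 0.77 for Fabp4, 0.75 for Plin1, 0.71 for Cidec, 0.64 for Lpl, 0.41 for Pparg and 0.39 for Lep, and Cfd and Car3 alone passed the permutation test after adjustment. Plin4 had an r of −0.36 in these 9 libraries, so its relation with Adipoq rests on the 3 high ones. Leaving out female wild type 3 and male knockout 2, the libraries farthest from the Adipoq median, gave r of 0.96 for Cfd, 0.94 for Car3, 0.65 for Lep, 0.44 for Pparg and 0.37 for Plin4.

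The relation was also computed within each sex and with group means removed. In the 6 female libraries r with Adipoq was 0.97 for Cfd, 0.95 for Car3, 0.91 for Plin1 and 0.74 for Lpl, and in the 6 male libraries 0.99, 0.99, 0.99 and 0.99. The lowest r in females was 0.63 for Pparg, and the lowest in males were 0.82 for Lep, 0.85 for Plin4 and 0.87 for Pparg. With each group's mean removed, r over the 12 deviations was 0.96 for Cfd, 0.94 for Fabp4, 0.94 for Car3, 0.91 for Plin1, 0.86 for Cidec, 0.83 for Lpl, 0.80 for Plin4, 0.78 for Lep and 0.70 for Pparg. The wild-type males did not show it for each gene: their Adipoq was at 3.07, 4.93 and 3.30 and their Plin1 at 6.92, 4.11 and 6.60 normalized counts, in the opposite order. These rest on 4, 6 and 4 counts of Adipoq and 9, 5 and 8 of Plin1, low enough for counting error to change the order.

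**Figure D3:**
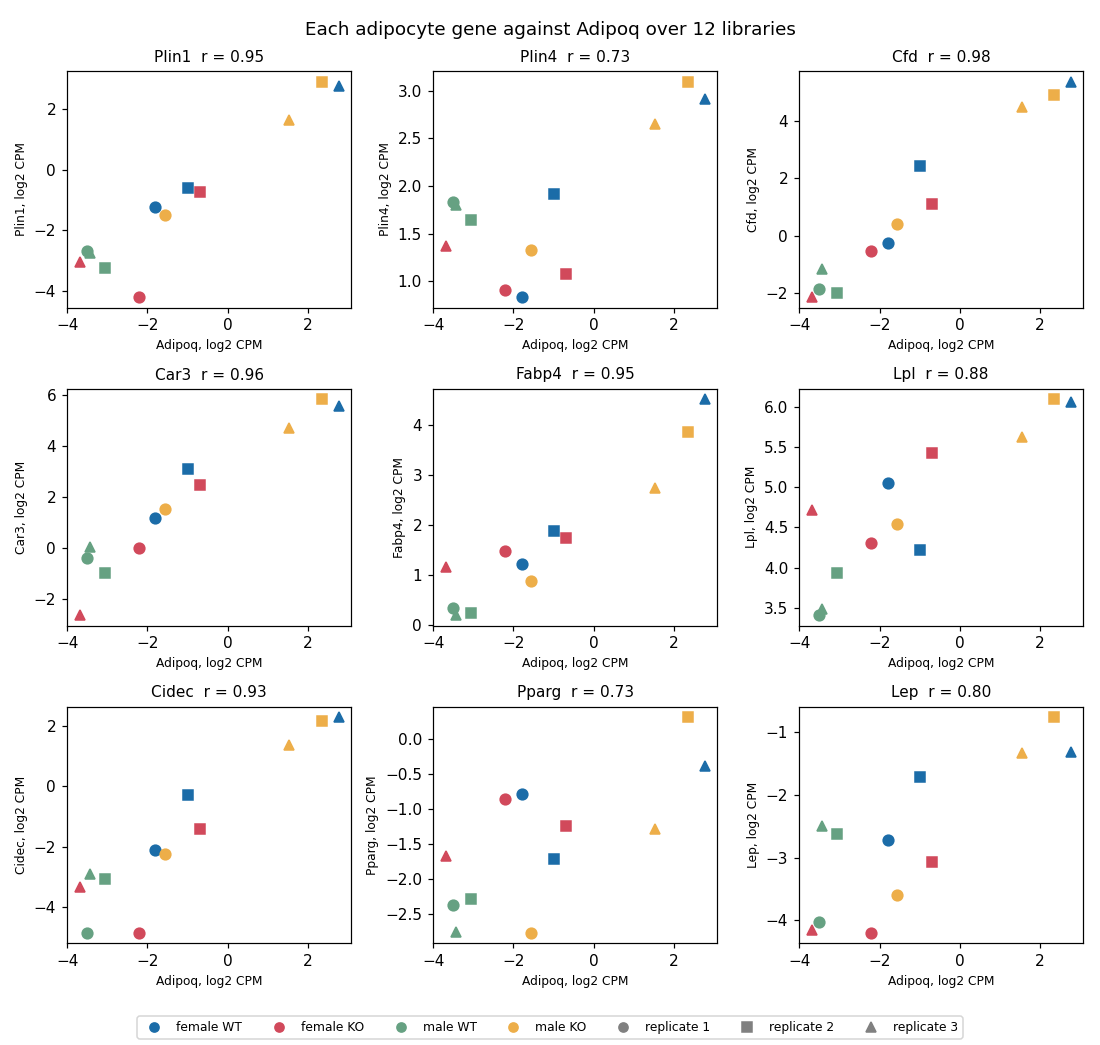
Log2 CPM of each of 9 adipocyte genes (vertical) against Adipoq (horizontal) in 12 libraries, coloured by group and shaped by replicate, with Pearson's r over all 12. Cfd and Car3 lie near a line (r of 0.98 and 0.96), while Plin4 is flat over the 9 libraries with lower Adipoq (r of −0.36 there).

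The proportions of the members were compared among the 3 libraries rich in Adipoq, as ratios of counts with 95% intervals. These cover counting error only, each library is 1 mouse, and no test between mice was made. Cfd gave 6.13 counts per Adipoq count in female wild type 3 (5.38 to 7.02), 5.88 in male knockout 2 (5.21 to 6.65) and 7.72 in male knockout 3 (6.61 to 9.05). The Cidec ratio was 0.709 (0.584 to 0.859), 0.866 (0.734 to 1.02) and 0.870 (0.699 to 1.08) in the same order, so that its intervals overlapped. Lpl was at 9.81 (8.63 to 11.2), 13.4 (11.9 to 15.1) and 17.1 (14.7 to 19.9), and Car3 at 6.85 (6.01 to 7.83), 11 (9.83 to 12.4) and 8.95 (7.68 to 10.5). Between female wild type 3 and male knockout 2 the intervals did not overlap for Car3 and Lpl, nor for Plin1 (0.839 to 1.19 against 1.27 to 1.70), Plin4 (0.927 to 1.31 against 1.45 to 1.93) and Pparg (0.0699 to 0.159 against 0.180 to 0.304). Lpl, Plin4 and Pparg were also counted where Adipoq was low. Wild-type males, with 4 to 6 Adipoq counts, had 784 to 1071 of Lpl, 218 to 265 of Plin4 and 8 to 12 of Pparg. The ratios of these genes can thus include counts from other cells, and their share was not tested.

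Other adipocyte genes were read from a list of 14, which includes receptors, transporters and enzymes of mature fat. In females 3 of 14 were called lower, near the 19.3% over all genes tested, and none higher. They were Acvr1c (an activin receptor of adipocytes, −4.03, adjusted p = 0.0492), Cd36 (a fatty acid transporter, −1.11, adjusted p = 0.0484) and Gpd1 (an enzyme that makes the glycerol backbone, −0.61, adjusted p = 0.0271), and the median was −1.26. Without female wild type 3 none of the 14 was called in females, where 16.0% of all genes tested were called lower. Acvr1c was then at −0.92 (adjusted p = 0.673), Cd36 at −0.66 (adjusted p = 0.242) and Gpd1 at −0.40 (adjusted p = 0.119). The 3 calls were also lost without female knockout 1 or female knockout 3, that of Acvr1c without female knockout 2 and that of Cd36 without female wild type 1. In males 13 of 14 were higher, with a median of 2.50, and 0 were called by edgeR, where 0.101% of all genes tested were called higher. For 9 of 14 the male groups did not overlap, where 6.51% of all genes tested did so in that direction. Without male knockout 1, 3 were called higher, where 1.74% of all genes tested were. The interaction was called for 10 of 14, all lower, where 12.4% of all genes tested were, led by Acvr1c at −9.61 (adjusted p = 0.0097), Pck1, which supplies glycerol for triglyceride, at −8.21 (adjusted p = 0.0179) and Retn, the adipokine resistin, at −7.32 (adjusted p = 0.0180). With 1 library left out, the number called ranged from 3 to 11: it was 3 without male wild type 1, 4 without female wild type 3, 5 without male knockout 2, and 6 without male wild type 3 or female knockout 3, where between 5.95% and 11% of all genes tested were called lower. The interaction of Acvr1c stayed between −11.47 and −6.55 and was called each time, whereas Pck1 and Retn lost their calls without female wild type 3 (−5.32, adjusted p = 0.0714, and −4.17, adjusted p = 0.113) and without male wild type 1 (adjusted p = 0.0510 and 0.0529). Acvr1c had 136 counts in female wild type 3, 204 in male knockout 2 and 95 in male knockout 3, against 0 to 11 in the other 9 libraries.

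A further list held lipid droplet and lipolysis genes that are not particular to adipocytes. Of the 11 tested out of 14, 7 were called lower and 1 higher in female knockouts, where 19.3% and 17.6% of all genes tested were, with a median of −0.62. Their r with the adipocyte index described below ran from −0.38 to 0.74. Lipe, which encodes hormone-sensitive lipase, rose by 1.44 on the log2 scale (SE 0.20, adjusted p = 0.0004), from 371 to 572 counts in wild-type to 1428 to 1554 in knockout females, without overlap. Fitm2, which helps droplets form, fell by 1.02 (SE 0.12, adjusted p = 0.0002), and Abhd5, the activator of the triglyceride lipase, fell by 0.73 (SE 0.12, adjusted p = 0.0010). These 3 calls held with each female library left out. In males 0 of 11 were called by edgeR, where 0.101% of all genes tested were called higher and 0.134% lower. The median was −0.02.

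Among the brown fat genes, Ucp1, Cidea and Elovl3, picked out after their values were seen, differed between the 3 libraries rich in Adipoq. Ucp1 counts were 0, 1 and 302 (wild type) and 1, 3 and 0 (knockout) for females, and 2, 0 and 0 (wild type) and 34, 226 and 0 (knockout) for males. Male knockout 3 thus held 184 Adipoq counts and no Ucp1 count, which allows up to 3, whereas female wild type 3 held more Ucp1 than Adipoq counts. So did male knockout 1, which is not among the 3 libraries rich in Adipoq, with 34 Ucp1 and 19 Adipoq counts. Cidea, a droplet protein enriched in brown fat, had 59 counts in female wild type 3, 101 in male knockout 2 and 6 in male knockout 3, with 0 to 14 in the other 9 libraries. Elovl3, an elongase of brown fat, had 19 counts in female wild type 3, 2 in male knockout 2 and 0 elsewhere, and was too low to test. Cox8b had 83, 114 and 16 counts in female wild type 3, male knockout 2 and male knockout 3. The remaining genes of the list did not separate male knockout 3 in this way, with 128, 236 and 135 counts of Dio2, 75, 155 and 102 of Cox7a1, 102, 80 and 103 of Prdm16, 1275, 1048 and 749 of Ppargc1a, and 4, 11 and 7 of Tmem26 in the same order. Of the 8 brown fat genes tested, Ucp1 (adjusted p = 0.0425) and Cidea (adjusted p = 0.0390) were called lower in female knockouts, near the 19.3% over all genes tested. In males 0 were called, where 0.101% of all genes tested were called higher and 0.134% lower. Where 12.4% of all genes tested were called lower in the interaction, Ucp1 (adjusted p = 0.0155), Cidea (adjusted p = 0.0253) and Cox8b (adjusted p = 0.0307) had a called interaction. Both female calls were lost without female wild type 3, where Ucp1 was at 1.08 (adjusted p = 0.835), the opposite direction, and Cidea at −1.60 (adjusted p = 0.493), and also without any 1 of the 3 female knockouts. The 3 interactions were not called either without female wild type 3 (adjusted p = 0.471 for Ucp1, 0.140 for Cidea and 0.0843 for Cox8b) or without male wild type 1 (0.0504, 0.0602 and 0.0614). Without male knockout 2, Ucp1 kept its call (adjusted p = 0.0435) and Cidea (0.0791) and Cox8b (0.0918) did not, and Cox8b lost it as well without female knockout 1, female knockout 3 or male wild type 3, and Cidea without female knockout 1.

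To find the genes most like the members, an adipocyte index was formed as the mean of the scaled log2 CPM of Adipoq, Plin1 and Cidec. It was highest in female wild type 3 (1.63), male knockout 2 (1.57) and male knockout 3 (1.17), followed by female wild type 2 (0.27), and lowest in female knockout 1 (−1.02) and male wild type 1 (−1.0). Of 17883 other genes, 90 (0.503%) had an r above 0.8 with it, and the median r over all genes was −0.03. The 10 closest were Acvr1c (r of 0.98), Mup22 (0.97), Angptl4 (0.95), Adig (0.93), Abcd2 (0.92), Nnmt (0.92), Cyp2e1 (0.92), Retn (0.92), Plpp3 (0.91) and Timp4 (0.91), and with group means removed their r remained between 0.80 and 0.97. These correlations are over 12 libraries that share the 3 high ones, and they describe likeness of pattern. Mup22 belongs to a family of near-identical genes among which reads can be split, so its 226 counts in female wild type 3 and 185 in male knockout 2 are uncertain.

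Of the 14 listed adipocyte genes, 9 had an r above 0.8 with the index, with a median of 0.89. The exceptions included Slc2a4, the insulin-responsive glucose transporter, with an r of −0.01: it had 665 to 1390 counts in females and 3784 to 5538 in males. Among the 90 genes close to the index, 10 (11.1%) were called lower in female knockouts, a smaller share than the 19.3% over all genes tested. In the interaction of sex and genotype 54 of them were called lower, where 12.4% of all genes tested were. In males 0 were called by edgeR, where 0.101% of all genes tested were called higher and 0.134% lower. The 90 genes were selected on the same libraries for following the index, so these shares are a description. Read the other way, and with the members left out, these 54 genes were 2.45% of the 2206 genes called lower in the interaction, and the 10 genes 0.290% of the 3450 called lower in females.

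Genes of neighbouring tissue were read in the same libraries. Amy1 had 199 to 421 counts in females, 746 to 1602 in 4 males, 8714 in male wild type 3 and 56718 in male knockout 2. Bpifa2 had 125303 counts in male knockout 2 and 35484 in male wild type 3, against 6 to 2611 in the other 10 libraries. Male wild type 3 held 4 Adipoq counts, and male knockout 3 held 184 with 6 Bpifa2 counts, so that the adipocyte genes and the parotid genes were high together in male knockout 2 alone. Lymph node markers summed to between 0.678 and 1.81 CPM in all 12 libraries, with 7 of 10 too low to test. Macrophage markers, 8 of 8 tested, were all lower in female knockouts (median −0.50, 3 called, where 19.3% of all genes tested were). All were higher in male knockouts (median 0.74, 0 called by edgeR, where 0.101% of all genes tested were called higher). Their median r with the index was 0.66. In females 1 was called without female wild type 3, and 0 by edgeR without female wild type 1, female knockout 1 or female knockout 3. In these settings 16.0% to 22.0% of all genes tested were called lower. In males 4 of 8 were called higher without male knockout 1, where 1.74% of all genes tested were. The interaction, the comparison in which most adipocyte genes were called, was also called lower for 5 of 8 macrophage markers (median −1.40), where 12.4% of all genes tested were. With 1 library left out this number ranged from 2 to 8, where 5.95% to 17.3% of all genes tested were called lower. Their summed level was 82.9 to 191 CPM in wild-type and 69.4 to 105 CPM in knockout females, and 75.1 to 88.6 CPM in wild-type and 93.5 to 173 CPM in knockout males. The part of these neighbouring cells in the adipocyte result was not tested.

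**Figure D4:**
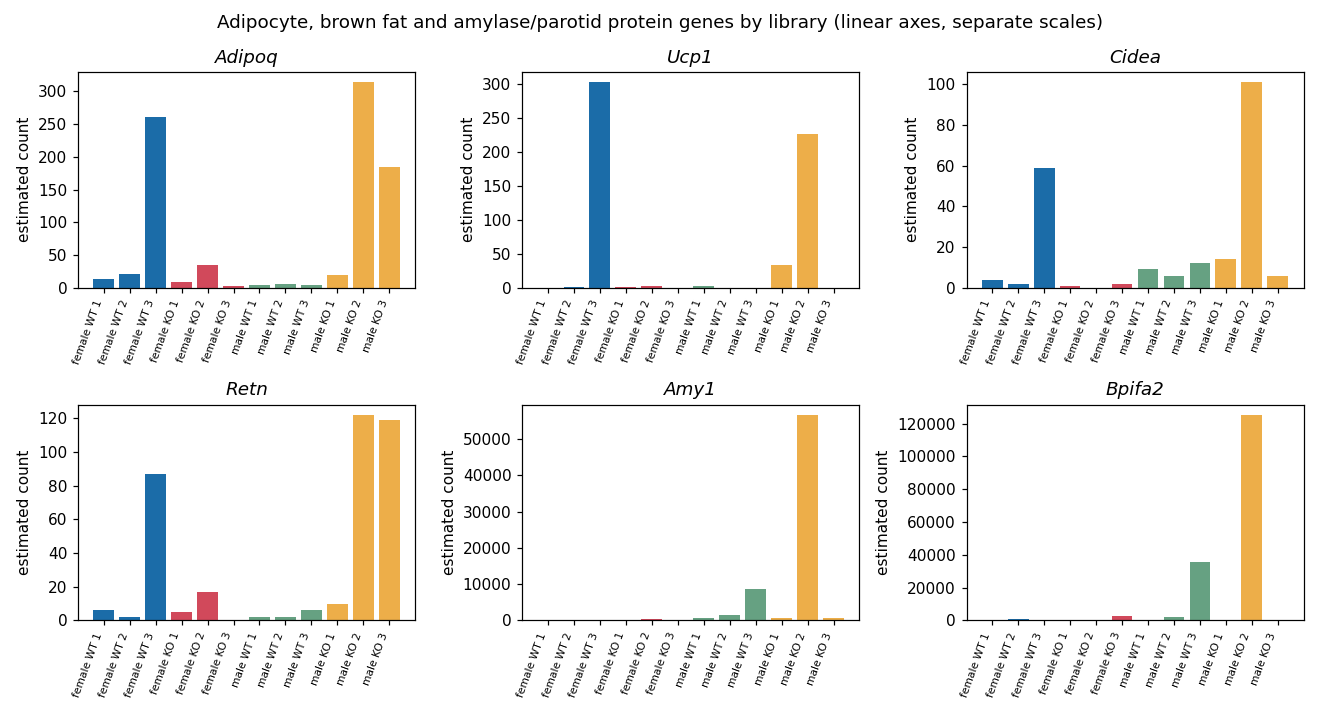
Estimated counts (linear axes, a separate scale per gene) of Adipoq, the brown fat genes Ucp1 and Cidea, the adipokine gene Retn and the parotid genes Amy1 and Bpifa2 in each of 12 libraries, coloured by group. Ucp1 is at 302 in female wild type 3, 226 in male knockout 2 and 0 in male knockout 3, where Adipoq is 261, 314 and 184, and Bpifa2 is highest in male knockout 2 and male wild type 3.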

How the data were processed

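Bulk RNA-sequencing of 12 mouse SMGs was analysed, with groups taken from the deposited labels. Per the study's methods, RNA was extracted from snap-frozen tissue and stranded libraries were made after removal of ribosomal RNA, while the labels name polyA RNA. The authors assigned reads to Gencode M35 transcripts (GRCm39) with Salmon 1.10.1 and deposited estimated counts per gene, of which 78.7% are whole numbers. They also deposited a normalized signal table, these counts divided by a factor per gene and library whose making is not given in the sources used here; it served as an alternative scaling.

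After rounding of the estimated counts, edgeR 4.0.16 (with limma 3.58.1, in R 4.3.3) was run as follows: TMM scaling, the filterByExpr filter, 1 quasi-likelihood fit to all 12 libraries with 1 mean per group, and Benjamini-Hochberg adjustment over the 17893 genes tested. A gene was called at an adjusted p of 0.05. Standard errors were taken as |log2 fold change| over the root of F. CPM after TMM, multiplied by the average effective library size, is called the normalized count. A prior count of 2 entered log2 CPM. Correlations were tested with 100000 permutations of the libraries, made regardless of group, in Python 3.11.15 (scipy 1.17.1). Figures were drawn with matplotlib 3.10.9. The edgeR fit and the permutation test were first tested on simulated data, and the other steps were not.

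The members and gene lists were chosen with earlier results of these data known. Besides the 10 members, the text names at most 3 called genes per list and comparison, members of lists where 5 or fewer were called, and the 10 genes with the highest r with the adipocyte index; Elovl3, Slc2a4, Amy1 and Bpifa2, and uncalled genes of a list, were named after their values were seen. Of the 56065 deposited identifiers, 55563 are in Gencode M39, the source of positions. Adipoq, Plin4, Car3, Fabp4, Lpl, Cidec and Pparg overlap annotated genes on the opposite strand, which stranded libraries separate only as far as the counting used strand.

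The alternatives were RLE and upper-quartile scaling, the 20 most abundant genes left out of the library sizes, the authors' factors, no filter on low counts, a minimum of 10 counts per library, the Wald test of DESeq2 1.42.0, a fit within each sex, a prior count of 0.5, a replicate block, and each library left out.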

Additional observations from a re-analysis of the deposited data

Results flagged for a closer look

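For 8 adipocyte genes the genotype difference on the log2 scale itself differed between the sexes, by the interaction term of edgeR's quasi-likelihood fit. The female minus male difference was −8.50 for Adipoq, −8.55 for Plin1, −9.90 for Cfd, −8.35 for Car3, −4.50 for Fabp4, −2.34 for Lpl, −8.97 for Cidec and −4.12 for Lep. The estimated knockout minus wild-type difference was below 0 in females and above 0 in males for all 8. Cfd, Cidec and Plin1 alone were called in females, and none was called in males. Of all genes tested, 19.3% were called lower in females and 0.101% higher in males. The estimate of Lpl in females was 0.17 without female wild type 3. Female wild type 3 was the highest of the wild-type females for all 8, and male knockout 2 and 3 were the highest of the knockout males. Single libraries were not tested as outliers.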

How the results depend on the processing

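With 3 mice per group, and the libraries rich in Adipoq in 2 of the 4 groups, counts of called members moved with the setting. Of the 5 comparisons, the number called lower in female knockouts (3) was 8 without a low-count filter, 6 with DESeq2's Wald test, 1 with upper-quartile scaling, 0 with at least 10 counts in every library, where Fabp4, Lpl and Plin4 alone were tested, and 0 to 8 with 1 library left out. The number called higher in male knockouts (0) was 7 without the filter, 5 with DESeq2, 1 with the replicate block and 0 to 8 with 1 library left out. The share of all genes tested that was called moved as well: called lower in females, from 19.3% to 10.7% without the filter, 21.4% with DESeq2 and 15% with upper-quartile scaling, and called higher in males, from 0.101% to 0.718% without the filter, 1.26% with DESeq2, 0.0894% with the block and 1.74% without male knockout 1. In females, 22.9% were called lower with at least 10 counts in every library, and 16.0% to 22.0% with 1 library left out. At that minimum the same 3 members were tested in the other comparisons. Of these, 2 were called in the interaction (8), 2 in the wild-type sex comparison (7) and 1 in the knockout one (7). Over all genes tested, 17.0% lower, 20.5% lower and 27.8% higher were called there. Leaving out 1 library gave 6 to 10, 0 to 7 and 0 to 8, where 5.95% to 17.3%, 11.2% to 16.3% and 19.3% to 23.8% of all genes tested were called. Without male knockout 2 and male wild type 3 together, chosen after seeing the data, 3 were called in the interaction (3.09% of all genes, from 12.4%) and 0 in the knockout sex comparison (19.1%, from 23.2%). The covariation with Adipoq passed for 2 of 9 genes instead of 9 without the 3 libraries with the highest Adipoq, also added later, where 9 libraries remained.

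Directions of the members' fold changes held in all settings run except Lpl in females (−0.82 to 0.17 with 1 library left out, 0.17 without female wild type 3), Plin4 between wild types (−0.78 to 0.28, 0.28 without the same library) and Pparg between knockouts (−0.68 to 1.00, −0.68 without male knockout 2 and also without male knockout 2 and male wild type 3). The r of Plin4 with Adipoq was −0.36 without the 3 highest libraries. Beyond the settings and libraries named, the cause of these moves was not tested. Upper-quartile scaling moved the median of all genes to 0.13 in females, 0.11 in the interaction and −0.18 between knockouts, and the genes called in females from 3158 higher and 3453 lower to 3962 and 2679. No label pairs mice by replicate number, and same-numbered libraries correlated at −0.11 to 0.05 in females and −0.13 to 0.09 in males after removal of group means. With the replicate block 4 members were called in females, 1 in males and 8 in the interaction. Of all genes tested, 18.4% were then called lower in females, 0.0894% higher in males and 11.5% lower in the interaction. Counts were low for Lep (1 to 34), Pparg (7 to 74), Cidec (0 to 272) and Adipoq (2 to 314), which limits what depth can show for them.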

Other observations

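Genes that make fatty acids and triglyceride, which the SMG also uses, were read in the same way. Of 16 such genes tested, 4 were called lower and 1 higher in female knockouts, where 19.3% and 17.6% of all genes tested were. Dgat2, which adds the last fatty acid to triglyceride, had 76, 65 and 355 counts in wild-type and 20, 45 and 7 in knockout females, a log2 difference of −3.17 (SE 0.82, adjusted p = 0.0092 by edgeR). Acly, which supplies acetyl-CoA for lipid synthesis, fell by 0.93 (SE 0.13, adjusted p = 0.0004), and Mlxipl, the carbohydrate-response factor ChREBP, rose by 1.57 (SE 0.28, adjusted p = 0.0012). Dgat2 lost this call without female wild type 3 (−1.76, adjusted p = 0.0673), while Acly and Mlxipl kept theirs with each female library left out. The interaction was called for 8 of 16, 7 lower and 1 higher, where 12.4% of all genes tested were called lower and 2390 of 17893 higher, led by Dgat2 at −5.03 (adjusted p = 0.0089) and Thrsp, a lipogenic nuclear protein, at −4.56 (adjusted p = 0.0171), both called with any 1 library left out. In males 0 of 16 were called by edgeR, where 0.101% of all genes tested were called higher and 0.134% lower. Without male knockout 1, 3 were called higher, where 1.74% of all genes tested were. Of the 16 genes, 3 had an r above 0.8 with the adipocyte index, and the list's median was 0.25.

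Of 8 regulators of lipoprotein lipase, 4 were abundant enough to test. Angptl4, the secreted inhibitor of the lipase, had 14, 19 and 40 counts in the wild-type and 2, 14 and 4 in the knockout females. The wild-type males gave 5, 16 and 11 and the knockout males 14, 106 and 111. Its interaction was −5.21 (SE 1.15, adjusted p = 0.0089) and its r with the index 0.95, so that the lipase and its inhibitor were both high in male knockout 2 and 3. Adipose progenitor markers had a median r of 0.43 with the index and endothelial markers 0.07, and 2 of 9 and 1 of 10, respectively, were called lower in female knockouts, where 19.3% of all genes tested were. The called macrophage genes in females were Adgre1 (−1.59, adjusted p = 0.0370), C1qa (−0.77, adjusted p = 0.0332) and C1qb (−0.76, adjusted p = 0.0398). Adgre1, the F4/80 antigen, had 2233 counts in female wild type 1 against 256 to 681 in the other 11 libraries, and that library had an Adipoq count of 13. Without it Adgre1 was at −0.29 (adjusted p = 0.420), C1qa at −0.60 (adjusted p = 0.101) and C1qb at −0.51 (adjusted p = 0.142). Without female wild type 3 Adgre1 was called (−1.96, adjusted p = 0.0195) and C1qa (adjusted p = 0.0646) and C1qb (adjusted p = 0.0517) were not. None of the 3 was called without female knockout 1 or female knockout 3, nor Adgre1 without female knockout 2.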
